A study of Mus musculus with 8 samples.

Results

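The genes described here are 9 members of the annexin and galectin families, the annexins Anxa1, Anxa2, Anxa3, Anxa4 and Anxa5 and the galectins Lgals1, Lgals3, Lgals8 and Lgals9. They were chosen by name, and each was found once in both gene tables, which list 54532 and 28229 genes. RNA-seq of total RNA was performed on brain tissue of male C57BL/6 mice on Day 21, in 8 libraries that form 4 groups of 2. PTS + RS mice received a photothrombotic stroke (PTS), a cortical infarct made by illuminating the skull after injection of the dye Rose Bengal, followed by daily restraint stress (RS), and RS mice received the restraint alone. The other 4 libraries were all from PTS + RS mice, given once daily for 2 weeks either RGFP109 (60 mg/kg), a small molecule named an HDAC3 inhibitor in the labels, or vehicle, named NaCl in the labels. No sham-operated group and no group with stroke alone was analysed here, so that both groups of the first comparison carry the stress and both groups of the second carry stroke and stress. Whether a library holds 1 mouse or a pool is not stated, and the p-values measure only the spread between these libraries.

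Annexins are cytosolic proteins that bind acidic membrane lipids when calcium rises, and several of them take part in membrane repair, vesicle traffic and the handling of dying cells. Galectins are lectins that bind galactose-containing sugars on glycoproteins, outside the cell as bridges between receptors and inside it at damaged lysosomes. In the injured brain, microglia and infiltrating macrophages are known sources of galectin-3, the product of Lgals3, while Anxa1 and Anxa2 are also known from the cells of the meninges and vessels.

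The libraries held between 15902013 and 21712033 counts on genes, and values are in CPM, that is, counts relative to the library total, with TMM factors estimated within each table. The spread between replicates was larger in the RGFP109 and vehicle table, with a common biological coefficient of variation of 32.1%, than in the table of PTS + RS and RS, with 11.4%. All 4 PTS + RS and RS libraries are labelled cortex, whereas in the RGFP109 and vehicle groups replicate 1 is labelled cortex and replicate 2 amygdala. Marker genes did not follow these labels. The summed level of 6 cerebral cortex markers was 553 and 495 CPM in the 2 libraries labelled amygdala and 378 and 230 CPM in those labelled cortex, and 6 amygdala markers summed to 72.6 and 76.8 CPM against 101 and 30.1 CPM. Vehicle replicate 1 stood apart with 956 CPM of 6 olfactory bulb markers, which summed to between 25.9 and 49.7 CPM in the other 7 libraries, where S100a5 was at 0. Choroid plexus markers ranged from 7.45 to 3785 CPM across the 8 libraries. In the first table they summed to 1620 and 48.8 CPM in PTS + RS and to 1820 and 3785 CPM in RS. PTS + RS and RS libraries thus also differed in tissue content, and the part of this in their comparison was not tested. The replicates of these 2 groups are therefore called by number and label.

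Of the 9 genes, 7 had a promoter in the RefSeq table used here (GRCm38.p6, 250 bases before the start), with no entry for Anxa3 and Lgals1. The promoters of Lgals3 and Lgals9, both higher after stroke, and of Anxa2, the member next to them in fold change with an entry, are shown so that their letters can be compared. Bases that GENCODE annotates as exon were left out, 47 for Lgals3, 22 for Lgals9 and 63 for Anxa2. Capitals mark a match to 1 of 4 motifs searched on both strands, AP-1 (TGANTCA), PU.1 (GAGGAAG), NF-kB (GGNNTTTCC) and a TATA box (TATAAA). The Lgals3 stretch lies at chr14:47373610-47373812 on the plus strand, inside the annotated gene, in an intron of its longer transcript and upstream of the RefSeq start. The Lgals9 stretch lies at chr11:78984947-78985174 on the minus strand, just upstream of the gene. The Anxa2 stretch lies at chr9:69453433-69453619 on the plus strand and ends at the base before the annotated gene.
Lgals3: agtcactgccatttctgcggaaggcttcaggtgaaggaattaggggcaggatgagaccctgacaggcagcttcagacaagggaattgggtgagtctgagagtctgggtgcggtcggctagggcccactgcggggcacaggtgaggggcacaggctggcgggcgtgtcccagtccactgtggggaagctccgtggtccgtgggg
Lgals9: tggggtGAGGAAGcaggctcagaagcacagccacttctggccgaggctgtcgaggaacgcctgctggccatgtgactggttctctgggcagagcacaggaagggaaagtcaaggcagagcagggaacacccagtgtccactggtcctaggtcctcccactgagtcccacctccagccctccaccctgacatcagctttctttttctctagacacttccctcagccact
Anxa2: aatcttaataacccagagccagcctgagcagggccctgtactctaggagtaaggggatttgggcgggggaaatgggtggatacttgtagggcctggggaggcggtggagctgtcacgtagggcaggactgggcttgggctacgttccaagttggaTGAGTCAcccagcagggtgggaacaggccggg
The Lgals9 stretch held the PU.1 letters, whose first base lies at -244 from the start, and these letters occur in 10.6% of the 32851 promoters of the table. Anxa2 held the AP-1 letters at -95, which occur in 6.75% of promoters, and, among the bases not printed, a TATA box at -17, which occurs in 12.4%. None of the 4 motifs was found in the 250 bases before Lgals3. NF-kB letters, present in 4.93% of promoters, were found for Anxa1 at -196 and for Anxa4 at -54, and Anxa1 also held a TATA box at -32. Anxa4 had a further promoter entry, in which none of the 4 motifs was found. The matches describe letters in a window and do not show that a factor binds there.

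The first comparison asks how the cortex of stressed mice differs with and without a stroke. Lgals3, Anxa3 and Lgals9 were higher in PTS + RS than in RS, by 6.07-fold, 3.05-fold and 2.86-fold on mean CPM. The call required an adjusted p under 0.05 by edgeR's quasi-likelihood test (Benjamini-Hochberg over 17581 genes) and a change of 1 or more on the log2 scale. Thus 3 of the 9 genes were called higher and 0 lower, against 2.12% of all tested genes called higher and 0.091% called lower. The median log2 fold change of the 9 genes was 0.91 and that of all tested genes was -0.0015. For 8 of the 9, all but Anxa1, both PTS + RS libraries lay above both RS libraries, which held for 25.7% of all tested genes.

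Lgals3 encodes galectin-3, the galectin that can form larger assemblies through its extended amino-terminal tail and that gathers on damaged lysosomes. Its level was 10.97 and 9.81 CPM in the PTS + RS libraries and 1.66 and 1.77 CPM in the RS libraries. The replicates of each group lay close together and the groups were far apart, at 10.4 ± 0.82 CPM against 1.71 ± 0.079 CPM (mean ± SD, n = 2 each). The log2 fold change was 2.60 (SE 0.22, edgeR adjusted p = 0.00152), and 0.722% of the tested genes had a larger one. The RS values rest on 30 and 28 counts.

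Lgals9 encodes galectin-9, a galectin with a pair of sugar-binding domains in 1 chain, known as a ligand of the immune receptor TIM-3. It stood at 20.8 and 16.0 CPM in the PTS + RS libraries and at 6.07 and 6.81 CPM in the RS libraries. Both stroke libraries exceeded both others, with means of 18.4 ± 3.39 and 6.44 ± 0.53 CPM (SD, n = 2 each). The difference was 1.52 on the log2 scale (SE 0.19, edgeR adjusted p = 0.00723).

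Among the annexins, Anxa3, annotated at chr5:96793339-96845966 on the plus strand, was the member called higher. Its level was 31.2 and 23.1 CPM in the PTS + RS libraries against 8.28 and 9.53 CPM in the RS libraries. The groups did not overlap and the spread was wider in the stroke group, at 27.1 ± 5.71 against 8.90 ± 0.88 CPM (SD, n = 2 each). The log2 fold change was 1.61 (SE 0.18, edgeR adjusted p = 0.00502).

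Anxa2, which binds S100a10 to form a membrane-linked complex that holds plasminogen and its activators, reached 27.6 and 14.4 CPM in the PTS + RS libraries and 11.6 and 8.27 CPM in the RS libraries. The stroke libraries were the higher ones, with a wide spread between the 2 of them. Its log2 fold change of 1.08 (SE 0.32) was large enough for a call, but the edgeR adjusted p was 0.134. It passed under 4 of the 10 other settings, with adjusted p-values from 4.49e-08 without a filter on low counts to 0.337 without RS replicate 2. The other 3 of these settings were DESeq2, the replicate block and the fit without PTS + RS replicate 2, where the log2 fold change was 1.47. Without PTS + RS replicate 1, the library with the highest level, it was 0.53. Either of these fits leaves 1 PTS + RS library, so that its p-value does not measure the wide spread in that group.

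Anxa4, an annexin known from epithelial membranes, was at 11.8 and 5.80 CPM against 4.91 and 4.42 CPM. PTS + RS replicate 1 alone was far above the other 3 libraries, and the log2 fold change of 0.91 (SE 0.34) did not pass (edgeR adjusted p = 0.218). Without PTS + RS replicate 1 it was 0.31 and without PTS + RS replicate 2 it was 1.33. Either fit leaves 1 PTS + RS library, so that its p-value does not measure the spread in that group. With all libraries kept, adjusted p-values ran from 0.00261 (edgeR without a filter on low counts) to 0.296 (limma-voom), at log2 fold changes below 1. Border macrophage markers had a like order of libraries, with sums of 23.8 and 11.01 CPM in PTS + RS and 8.66 and 7.13 CPM in RS. Of their 4 tested markers, 1 was called higher. The order was not particular to them, since the sums of microglial, astrocyte, endothelial, and pericyte and smooth muscle markers had it as well. The part of any of these cell types in the levels of Anxa2 and Anxa4 was not tested.

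Anxa5, whose product binds phosphatidylserine on the surface of dying cells, was at 61.1 and 43.1 CPM in the PTS + RS libraries and 35.7 and 30.7 CPM in the RS libraries. The groups did not overlap, but the step was small, 0.65 on the log2 scale (SE 0.17, edgeR adjusted p = 0.102). It was below the required size of 1 here and in each of the 10 other settings. Lgals1, which encodes the small dimeric galectin-1, was at 14.4 and 15.4 CPM against 10.9 and 12.8 CPM, and Lgals8, which encodes the galectin that marks damaged vesicles for autophagy, at 29.6 and 32.1 CPM against 26.5 and 26.6 CPM. For both the stroke libraries lay slightly higher, with log2 fold changes of 0.33 (SE 0.15, edgeR adjusted p = 0.321) and 0.21 (SE 0.10, adjusted p = 0.345). Lgals8 overlaps Heatr1 on the opposite strand, and the strand setting of the counting is not given in the sources used here. Pseudogene copies of Lgals1 are annotated, so that its reads could be shared with them.

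Anxa1, whose product is known to limit leukocyte recruitment through formyl peptide receptors, was at 3.56 and 1.74 CPM in the PTS + RS libraries and 2.81 and 1.39 CPM in the RS libraries. It was the member whose groups overlapped. In both groups replicate 1 was the higher library, and the log2 fold change was 0.32 (SE 0.47, edgeR adjusted p = 0.781). The value was -0.29 without PTS + RS replicate 1 and -0.092 without RS replicate 2. Summed meningeal fibroblast markers were also higher in replicate 1 of each group, with 167 and 78.1 CPM in PTS + RS and 145 and 102 CPM in RS, and 0 of the 6 were called by edgeR, with none at 0 in any library. Several other marker sums were higher in replicate 1 of both groups too, among them those of microglia, border macrophages, astrocytes and endothelial cells. The part of meningeal tissue or of these cell types in the level of Anxa1 was not tested.

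**Figure D1:**
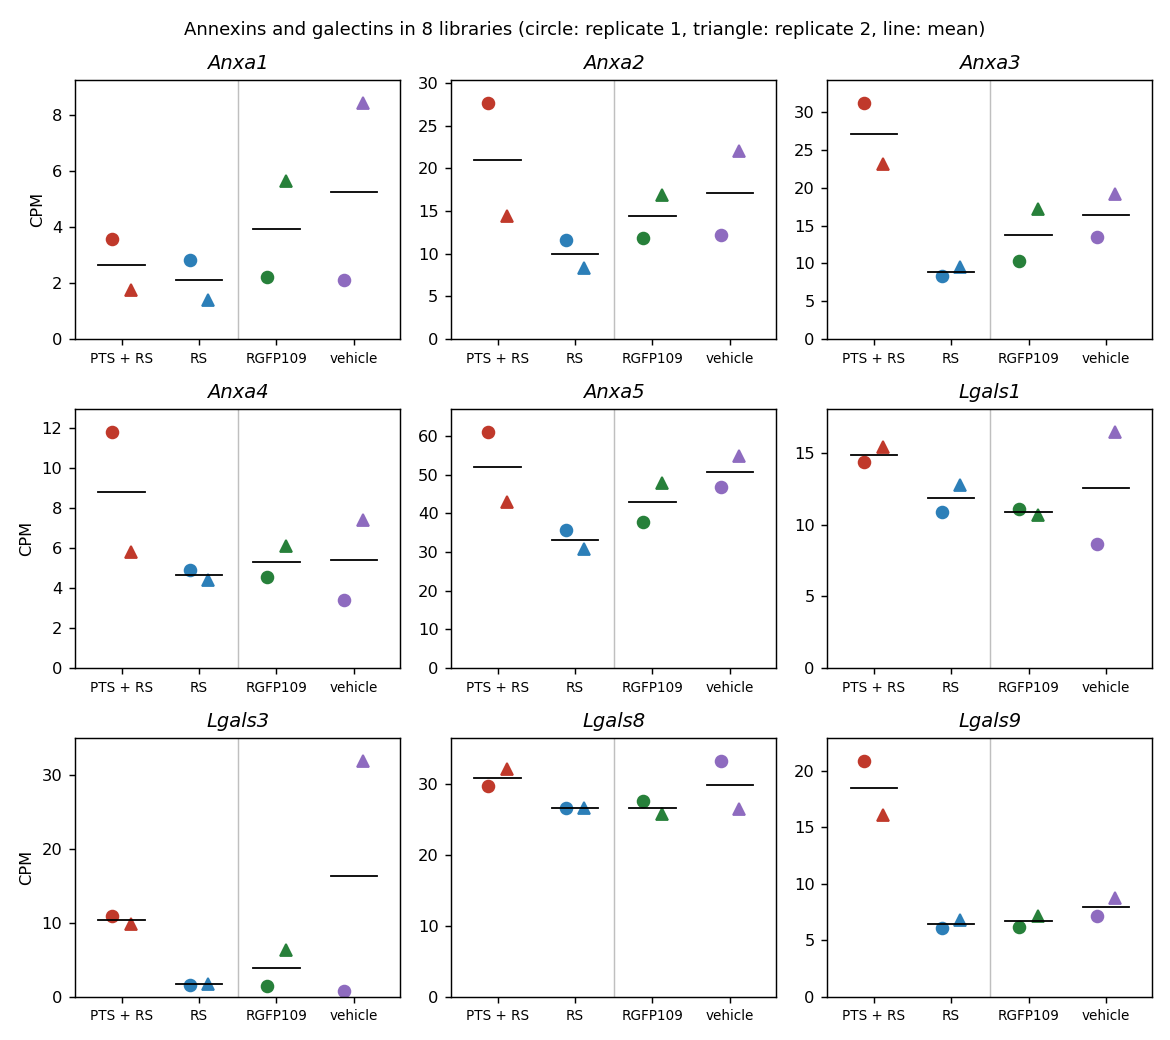
Level in CPM (linear axis from 0) of each of the 9 genes in the 8 libraries, with circles for replicate 1, triangles for replicate 2 and a line at the mean of each group of 2. The grey line separates the tables, which were normalized separately. Lgals3, Lgals9 and Anxa3 were higher in both PTS + RS libraries than in both RS libraries, and vehicle replicate 2 held 31.9 CPM of Lgals3 against 0.796 CPM in vehicle replicate 1.

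Compared per unit of length, as the authors' FPKM, and among the 5 annexins described here alone, Anxa5 led in all 8 libraries (17.2 to 34.0 FPKM), and the other 4 did not exceed 8.48 FPKM in any library. Of these 5, in RS cortex Anxa2 (2.65 ± 0.62 FPKM) and Anxa3 (2.43 ± 0.24 FPKM) were next and did not differ beyond their spread, and the same held for Anxa4 (1.00 ± 0.074 FPKM) and Anxa1 (0.802 ± 0.38 FPKM), the lowest pair. In PTS + RS cortex the order of their means was Anxa5, Anxa3, Anxa2, Anxa4 and Anxa1, and Anxa3 (7.39 ± 1.53 FPKM) and Anxa2 (5.58 ± 2.47 FPKM) again lay within their spread. Of the summed FPKM of the 5 annexins, Anxa5 made up 73.0% on average in RS and 65.0% in PTS + RS, and Anxa3 9.65% and 16.6%.

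Among the 4 galectins described here Lgals1 led in FPKM in all 8 libraries (9.46 to 18.2 FPKM), and Lgals3 was the lowest of the 4 in both groups of the first comparison, with 0.917 ± 0.043 FPKM in RS and 5.55 ± 0.42 FPKM in PTS + RS. In RS the order of these 4 was Lgals1, Lgals8, Lgals9 and Lgals3, with each neighbour separated by more than its spread. In PTS + RS Lgals9 (8.56 ± 1.55 FPKM) and Lgals8 (8.30 ± 0.50 FPKM) could not be ordered. The share of Lgals3 in the summed FPKM of the 4 was 3.80% in RS and 14.3% in PTS + RS on average, that of Lgals9 12.4% and 22.0%, and that of Lgals1 54.0% and 42.2%.

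The other members of both families gave no call. Of 7 other annexins listed, 5 had enough counts to be tested, and edgeR called 0 of them, with log2 fold changes from -0.33 to 0.18 and a median of -0.0023. At an unadjusted p under 0.05, 1 of them passed, Anxa6, with 0.18 on the log2 scale, and DESeq2 and limma-voom also called 0. Of 7 other galectins and galectin-like genes, 3 were tested and 0 called by edgeR, with a median of -0.55. DESeq2 and limma-voom called 0 of these as well, and Lgals12 alone had an unadjusted edgeR p under 0.05 (0.0481, log2 fold change -1.29).

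Partners of the annexins were called in 3 of 9 tested cases of 12 listed, all higher, with a median log2 fold change of 0.51. Of all tested genes 2.12% were called higher, with a median of -0.0015. The partner lists were chosen with earlier results of these data known. Plau, the urokinase-type plasminogen activator, was at 14.9 and 8.26 CPM against 2.81 and 2.02 CPM (log2 fold change 2.25, edgeR adjusted p = 0.0164). S100a11, a calcium-binding partner of Anxa1, was at 7.47 and 5.09 CPM against 2.15 and 2.33 CPM (1.48, adjusted p = 0.0376), and S100a6, of the same S100 family, changed by 1.06 (adjusted p = 0.0487). Limma-voom called Plau alone of these 3. S100a10, the partner of Anxa2, was at 14.1 and 11.97 CPM against 9.93 and 8.33 CPM and was not called (0.51, adjusted p = 0.192). The formyl peptide receptor Fpr1 had 7 and 4 counts against 4 and 12, and Fpr2 had at most 2 counts in any of these 4 libraries, so that neither was tested.

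Of the receptors and ligands of galectins, all 13 listed were tested and 6 were called, all higher, with a median log2 fold change of 1.45. The share called higher over all tested genes was 2.12%, and this list too was chosen with earlier results known. Trem2, a microglial receptor that galectin-3 is known to bind, was at 76.4 and 59.5 CPM against 10.5 and 8.33 CPM (log2 fold change 2.84, edgeR adjusted p = 0.000483). The leukocyte phosphatase Ptprc (CD45) changed by 2.53, the adhesion receptor Cd44 by 2.41, and Itgam, the CD11b integrin chain, by 2.13. Havcr2, which encodes TIM-3, was at 12.6 and 10.6 CPM against 2.92 and 2.08 CPM (2.20, adjusted p = 0.00406). Lgals3bp, a secreted glycoprotein that binds galectin-3, was at 135 and 83.8 CPM against 19.9 and 28.1 CPM (2.19, adjusted p = 0.00499). The phagocytic receptor Mertk had a small log2 fold change of 0.70, below the required size, at an adjusted p of 0.00750. Trem2, Ptprc, Itgam and Havcr2 are themselves known as genes of microglia and other leukocytes.

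**Figure D2:**
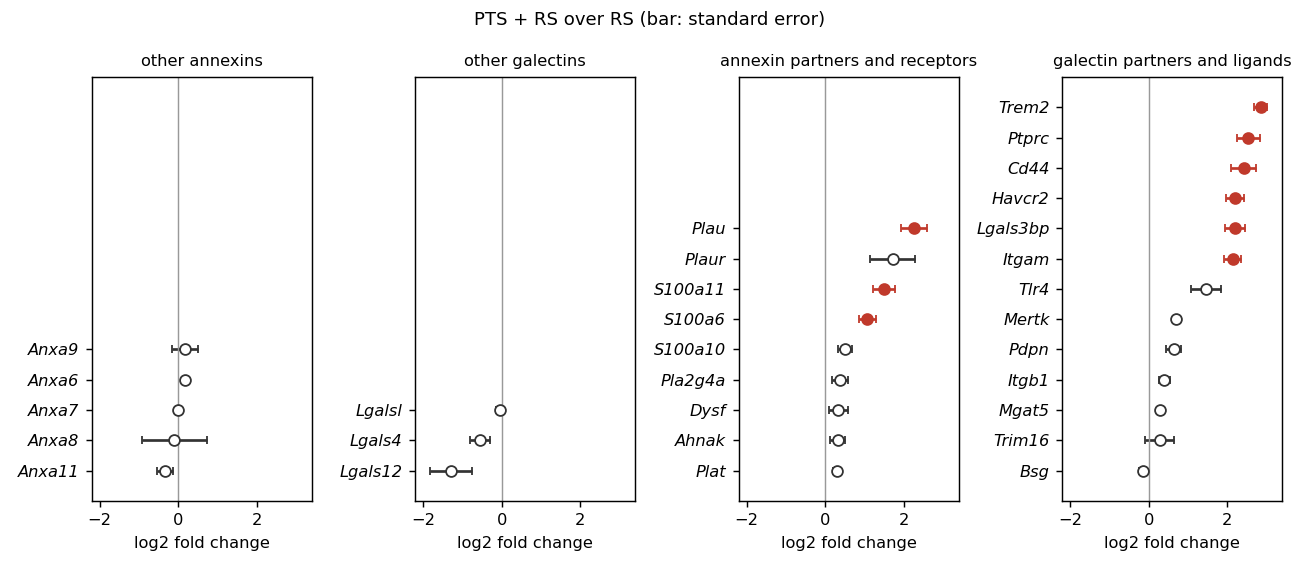
Log2 fold change of PTS + RS over RS (linear axis, bars are standard errors) for the tested genes of 4 lists, with filled red points for genes called higher and open points for genes not called. The other annexins and galectins hold no filled point, and 6 of the 13 galectin partners do, from 2.13 to 2.84.

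Microglial markers moved with these results. All 7 markers summed here (P2ry12, Tmem119, Cx3cr1, Csf1r, Aif1, C1qa and Fcrls) were called higher by the same rule, with a median log2 fold change of 1.79, and their sum was 892 and 757 CPM in PTS + RS against 234 and 209.7 CPM in RS. None of the 7 was at 0 in any library. In bulk tissue more cells of a type and more RNA per cell cannot be told apart. As a percentage of the microglial sum, Lgals3 was 1.23% and 1.30% in PTS + RS and 0.708% and 0.843% in RS. The other 8 genes were lower against that sum in PTS + RS by their group means, for example Lgals9 at 2.34% and 2.12% against 2.59% and 3.25%, and Anxa5 at 6.85% and 5.69% against 15.3% and 14.7%. Lgals3 was therefore the member that rose by more than the summed microglial markers on mean CPM. It did not rise by more than every microglial gene. Log2 fold changes of the 7 markers ran from 1.02 to 2.61, and that of Trem2 was 2.84, against 2.60 for Lgals3. Neutrophil markers summed to at most 0.938 CPM in these 4 libraries, with Ly6g and Retnlg at 0 in each. Astrocyte markers summed to 4063 and 3388 CPM against 1816 and 1771 CPM. The part of either glial cell type in the changes was not tested.

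The second comparison asks what RGFP109 did in mice that had both stroke and stress. No annexin or galectin was called by edgeR, with 0% of 17565 tested genes called in either direction. At an unadjusted p under 0.05, 88 genes were higher and 118 lower, and none of the 9 was among them. DESeq2 and limma-voom also called 0 genes. Without vehicle replicate 2, 15 genes were called higher and 78 lower, again with 0 of the 9 among them. All 9 fitted log2 fold changes were below 0, as were those of 9240 of the 17565 tested genes, and each of the 9 had an edgeR adjusted p of 1.00. Their median was -0.25 against -0.016 over all tested genes. Apart from Lgals3 they lay between -0.41 (Anxa1, SE 0.80) and -0.021 (Anxa4, SE 0.47). The shared direction depended on vehicle replicate 2. Without it Anxa1, Anxa2, Anxa3, Anxa4, Lgals1 and Lgals3 were above 0, and Anxa5, Lgals8 and Lgals9 stayed below.

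**Figure D3:**
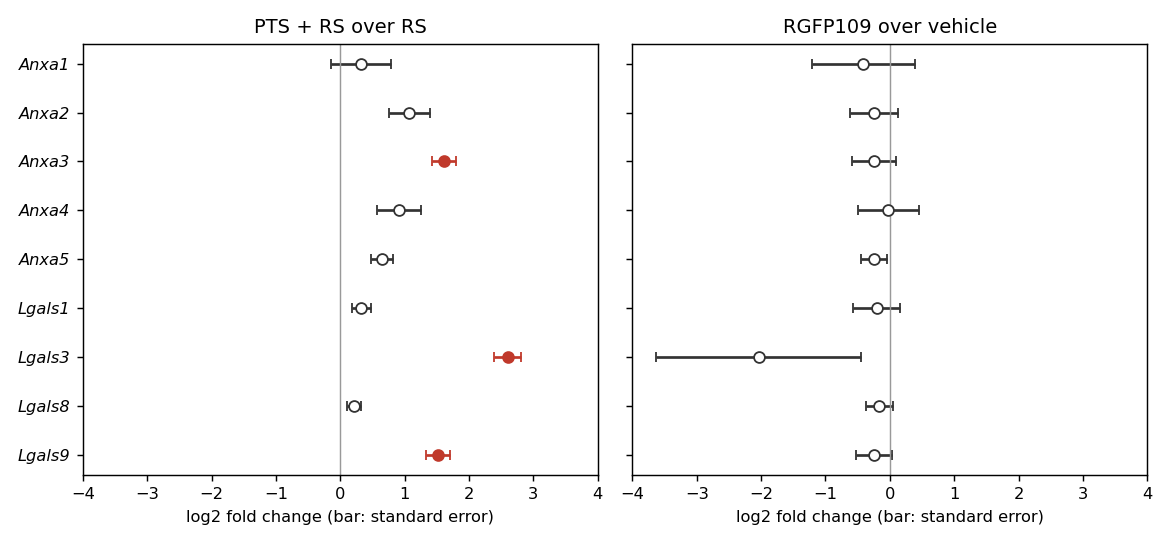
Log2 fold change (linear axis, bars are standard errors) of the 9 genes for PTS + RS over RS on the left and RGFP109 over vehicle on the right, with filled red points for genes called higher. The left panel holds 3 filled points and all values right of 0, and the right panel holds no filled point, all values left of 0 and the widest bar at Lgals3 (-2.04, SE 1.60).

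Lgals3 had the widest spread. It was at 1.46 and 6.40 CPM in the RGFP109 libraries and at 0.796 and 31.9 CPM in the vehicle libraries, replicate 1 before replicate 2. Both replicates labelled amygdala were far above both labelled cortex, and the groups overlapped. The fitted value of -2.04 (SE 1.60) became 2.32 without vehicle replicate 2, -0.67 with limma-voom and -1.08 with the label, which is also the replicate number, as a block. It was -3.0 without vehicle replicate 1, the library with olfactory bulb markers.

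Set side by side within a label, 1 library against 1 library with no test, Lgals3 with RGFP109 was 0.201 times its vehicle level in the libraries labelled amygdala (137 against 587 counts, 95% counting interval of the ratio 0.165 to 0.242). In those labelled cortex it was 1.83 times the vehicle level, on 23 against 14 counts, with an interval of 0.903 to 3.85 that includes 1. The intervals cover counting error only, and the vehicle library labelled cortex was the one with olfactory bulb markers. The microglial sums of the libraries labelled amygdala were close to each other, at 361 CPM with RGFP109 and 376 CPM with vehicle, and Lgals3 was 1.78% and 8.49% of them. In those labelled cortex Lgals3 was 0.538% and 0.364% of sums of 271 and 218 CPM. Border macrophage markers summed to 25.2 and 36.7 CPM and meningeal fibroblast markers to 150 and 262 CPM in the libraries labelled amygdala with RGFP109 and vehicle, and their part in the level of Lgals3 was not tested.

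Lgals9 was the member whose RGFP109 libraries (6.22 and 7.10 CPM) both lay below both vehicle libraries (7.11 and 8.70 CPM), which held for 13.8% of all tested genes. The nearest libraries of the groups were almost equal, and the log2 fold change was -0.25 (SE 0.28). Anxa5 was at 37.9 and 47.9 CPM with RGFP109 and 46.8 and 55.0 CPM with vehicle, lower within both labels (ratios 0.810 and 0.871) but overlapping between groups. Anxa3, at 10.3 and 17.2 CPM against 13.5 and 19.2 CPM, and Anxa2, at 11.9 and 16.9 CPM against 12.2 and 22.0 CPM, had the same pattern of a lower value within each label and a larger step between labels.

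For Lgals1, Anxa4 and Anxa1 the ratio lay on opposite sides of 1 within the 2 labels, with no test of that difference. The vehicle library labelled cortex was the one with olfactory bulb markers, so that the pair labelled cortex also differed in tissue content. Lgals1 was at 11.1 and 10.7 CPM with RGFP109 and 8.65 and 16.5 CPM with vehicle. Its ratio was 1.28 (95% counting interval 1.03 to 1.61) in the libraries labelled cortex and 0.650 (0.545 to 0.774) in those labelled amygdala. Anxa4 was at 4.57 and 6.08 CPM against 3.41 and 7.39 CPM, and both counting intervals of its ratios included 1. Anxa1 was at 2.22 and 5.66 CPM against 2.10 and 8.43 CPM, nearly equal in the libraries labelled cortex and lower with RGFP109 in those labelled amygdala (ratio 0.671, 0.525 to 0.857). Lgals8, at 27.6 and 25.7 CPM with RGFP109 and 33.2 and 26.4 CPM with vehicle, was lower with RGFP109 within both labels, by ratios of 0.832 and 0.973.

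**Figure D4:**
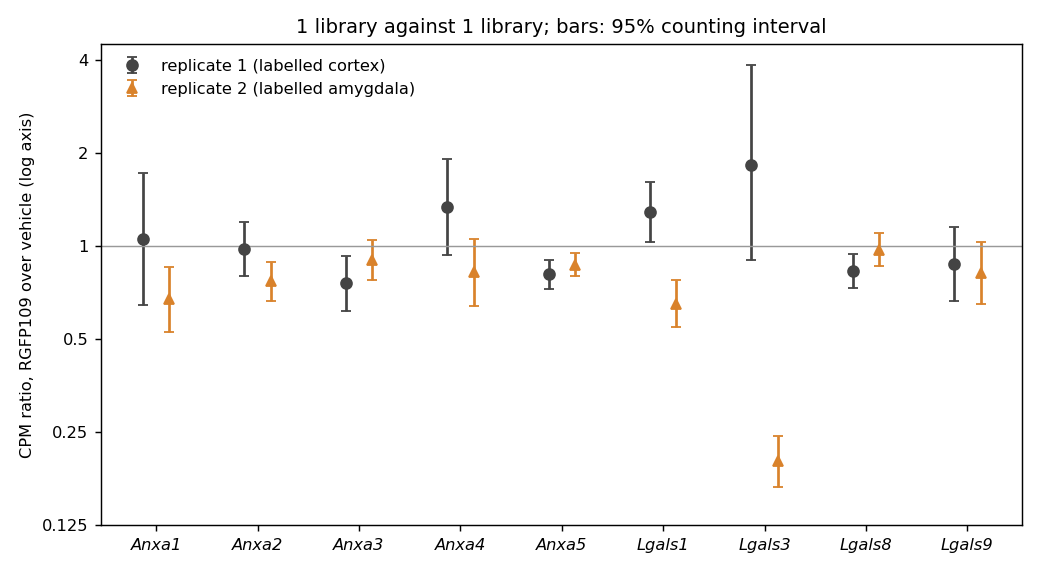
Ratio of CPM, RGFP109 over vehicle (log axis), of single libraries within replicate 1 (circles) and replicate 2 (triangles), with bars for the 95% counting interval. Lgals3 stands apart with 1.83 in replicate 1 and 0.201 in replicate 2, while the ratios of the other 8 genes lie between 0.650 and 1.34.

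The partner lists gave 0 calls by edgeR, DESeq2 and limma-voom in this comparison, with 0 genes at an unadjusted p under 0.05. Trem2 was at 10.9 and 24.6 CPM with RGFP109 and 9.22 and 38.1 CPM with vehicle, and was higher in both libraries labelled amygdala, as Lgals3 was. S100a10 was lower in both RGFP109 libraries (12.6 and 21.2 CPM) than in both vehicle libraries (29.5 and 25.4 CPM), which held for 13.8% of all tested genes. Its log2 fold change was -0.70 (SE 0.31). Cd44 was at 11.1 and 9.81 CPM with RGFP109 and 2.05 and 8.37 CPM with vehicle (log2 fold change 1.00, SE 0.67). The low value was that of vehicle replicate 1, the library with olfactory bulb markers. Havcr2 and Lgals3bp overlapped between the groups. Fpr1 and Fpr2 had at most 17 and 8 counts in a library and were not tested.

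Because the labels divide these 4 libraries, the step between labels was fitted as well, a comparison chosen after seeing the data, with treatment and label as terms. Lgals3 and Anxa1 had the largest log2 fold changes of the 9 genes for the libraries labelled amygdala over those labelled cortex, 3.70 (SE 0.86) and 1.67 (SE 0.36), with edgeR adjusted p-values of 0.412 and 0.395. The fit leaves 1 residual degree of freedom, and edgeR called 0 genes, with 1069 genes higher and 538 lower at an unadjusted p under 0.05. Limma-voom called 0 genes, and DESeq2 called 156 genes higher and 53 lower, Lgals3 among the former (adjusted p = 9.58e-06, in a range from 7.88e-14 to 1.00 over the 10 settings). In 6 of the 9 genes, all 5 annexins and Lgals3, both libraries labelled amygdala lay above both labelled cortex, which held for 21.6% of all tested genes, and Lgals8 lay below. Microglial markers summed to 361 and 376 CPM in the former and 271 and 218 CPM in the latter. The label and the replicate number are the same division here and cannot be told apart.

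**Figure D5:**
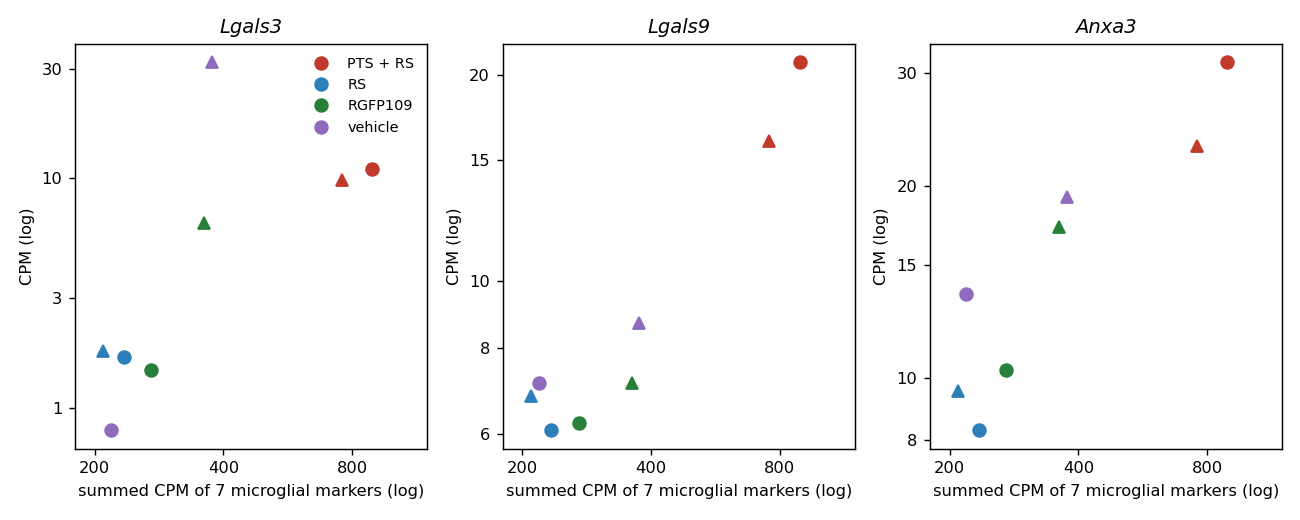
Level in CPM of Lgals3, Lgals9 and Anxa3 against the summed CPM of 7 microglial markers (both axes log) in the 8 libraries, with circles for replicate 1 and triangles for replicate 2. The tables were normalized separately. Lgals9 and Anxa3 are highest in the 2 PTS + RS libraries, which have the highest microglial sums, whereas Lgals3 is highest in vehicle replicate 2 (31.9 CPM) at a microglial sum of 376 CPM.

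Across the 8 libraries, scaled together, the patterns of the 9 genes differed. As a description over 8 points that share depth and tissue content, the log2 levels of Anxa2 and Anxa5 had a Pearson r of 0.95, and those of Anxa3 and Lgals9 0.89. Lgals8 had no r above 0.46 with any other member. Among 16947 other genes, the level of Lgals3 was most like those of Atp6v0d2, a subunit of the vacuolar proton pump (r = 0.97), and Mmp12, the macrophage elastase (r = 0.97). Lgals9 was most like Ctsa, a lysosomal protease (r = 0.99), Grn, which encodes progranulin, and the chemokine Cxcl10. Anxa3 was most like Vim, the intermediate filament gene vimentin (r = 0.99), Snx5 and the co-stimulatory ligand gene Cd86. Anxa2 was most like Ms4a6b (r = 0.98), Ccrl2 and F13a1, the last of which encodes a coagulation factor chain made by macrophages. The nearest genes were Il13ra1 for Anxa5 (r = 0.99), Tmie for Anxa1 (r = 0.98), Tmed10 for Anxa4 (r = 0.96), Tspo for Lgals1 (r = 0.94) and Arhgap24 for Lgals8 (r = 0.99). These are the highest values among many candidates over 8 points, a choice that by itself favours a high r.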

How the data were processed

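Per the labels and the methods, paired-end reads were mapped by the authors with STAR 2.4.0 (GRCm38) and assigned to genes with HTSeq 0.6.1. The authors deposited the raw counts and the FPKM derived from them in 1 table per comparison. The deposited group means, fold changes, p-values and 8 per-library columns of a normalized signal were not used. The library kit is named differently in the labels and the methods. Groups were taken from the labels.

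Genes were filtered with filterByExpr, counts were scaled by TMM within each table, and groups were compared by edgeR 4.0.16 (quasi-likelihood test, R 4.3.3), checked on simulated counts. DESeq2 1.42.0, limma-voom (limma 3.58.1), other scalings, no filter, a replicate block and leaving out each library were alternatives. Intervals of ratios between single libraries are exact binomial (95%). Log2 levels used a prior count of 2. All 9 members were named, and of the family and partner lists S100a10, S100a11, Fpr1, Fpr2, Lgals3bp, Havcr2 and up to 4 called genes per list, those with the largest fold change. Likeness took the 3 genes with the highest Pearson r. Itgam, Anxa6, Lgals12 and Mertk were named after their values were seen. The members and lists were chosen with earlier results of these data known. Promoters were read from RefSeq (GRCm38.p6) and gene models from GENCODE M21. Of the microglial list, 1 gene was left out of its sum and is not reported here.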

Additional observations from a re-analysis of the deposited data

Results flagged for a closer look

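For 4 genes the library with RGFP109 lay above its vehicle library in the pair labelled cortex and below it in the pair labelled amygdala. The log2 ratios of RGFP109 over vehicle were 0.87 and -2.32 for Lgals3, 0.36 and -0.62 for Lgals1, 0.42 and -0.28 for Anxa4, and 0.077 and -0.58 for Anxa1, cortex before amygdala. Each pair is 1 library against 1 library, and the difference between the pairs was not tested. The pair labelled cortex also differed in tissue content. Olfactory bulb markers summed to 38.3 CPM with RGFP109 and 956 CPM with vehicle, and choroid plexus markers to 1503 and 7.45 CPM. The part of this in the ratios was not tested.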

How the results depend on the processing

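For PTS + RS against RS, 83 of 90 values for single genes kept their direction and their side of the threshold over 10 alternatives. Lgals3, Anxa3 and Lgals9 were called in each of the 10. The number of the 9 genes called ranged from 3 to 5 with 1 library left out, the 5 being without PTS + RS replicate 2, when Anxa2 and Anxa4 were added. Anxa1 ranged from -0.29 to 0.92 in log2 fold change with 1 library left out and turned below 0 without PTS + RS replicate 1 or RS replicate 2. Anxa2 ranged from 0.53 to 1.47 and Anxa4 from 0.31 to 1.33, both lowest without PTS + RS replicate 1. For RGFP109 against vehicle 0 of the 9 were called in each alternative, and 12 of 90 values changed sign. With 1 library left out the log2 fold change ranged from -1.25 to 0.92 for Anxa1, from -0.62 to 0.25 for Anxa2, from -0.67 to 0.077 for Anxa3, from -0.48 to 0.65 for Anxa4, from -0.60 to 0.34 for Lgals1, from -3.48 to 2.32 for Lgals3 and from -0.31 to 0.0066 for Lgals8. Anxa4 was 0.080 with limma-voom. For the libraries labelled amygdala against cortex, a comparison chosen after seeing the data, the number called was 1 with DESeq2 and 1 without a filter, and from 0 to 2 with 1 library and the treatment term left out, the 2 being Lgals3 and Anxa1 without replicate 1 of either group. Apart from the changes that fewer samples bring by construction, the cause was not tested. A group left with 1 library was assumed to vary like the other.

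With the replicate block, Anxa2 was called in PTS + RS against RS (1.04, edgeR adjusted p = 0.0131, range over alternatives 4.49e-08 to 0.337), and Anxa4 was 0.056 and Lgals3 -1.08 for RGFP109. The deviations of libraries with the same number correlated at 0.035 in the first table and 0.30 in the second, where the number is also the labelled tissue, with 2 pairs in each. The block changed no other call.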
